A study of Mus musculus with 14 samples.

Results

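Epithelium that cornifies replaces its living surface cells with a cross-linked protein shell, the cornified envelope, and 57 genes of that programme were followed across 12 mammary tumours. They were chosen by name: every annotated gene whose symbol starts with Sprr or Lce, and the measured genes of a list of 38 keratins, envelope precursors, cross-linking enzymes, desmosomal proteins and proteases. Of the 38, Tchh, Krt6a and Dsg1a had no probe annotated to 1 gene, which left 35, of which 3 (Sprr1a, Sprr1b and Sprr2d) were also found by symbol. The array held 13 Sprr and 12 Lce genes, against 17 and 21 in the RefSeq gene table. All 57 genes had values on all 14 arrays and none was lost to the filter, out of 16877 genes tested. They were measured by 58 probes, and only Krt1 had more than 1.

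The tumours arose in the mammary glands of mice heterozygous for Brg1, whose product is the motor subunit of SWI/SNF chromatin remodellers. All 12 tumours, named here by the numbers in their labels, share that genotype (Brg1+/-), so no wild-type, normal gland or treated group was compared, and each tumour is a group of its own. Strain is given as mixed in the labels, and the age of the animals, the histology of the tumours and whether each came from a separate mouse are not in the labels. Total RNA of each tumour (Cy5) was hybridised with 1 common mouse reference RNA (Cy3), and every value below is a log2 ratio of tumour over that reference unless it is called a difference. A ratio shows how a gene differs between tumours, but ratios of different genes cannot be ranked as levels. Each tumour had 1 array, except that T172 and T284 had 2, the later one marked as a biological repeat. The p-values therefore measure only the spread between these arrays, which may be technical, and with so few arrays their precision is limited.

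Markers of mammary epithelium were used to check the tissue. Krt18, a keratin of simple luminal epithelium, lay above the reference in 11 tumours, from 1.14 in T221 to 2.97 in T646, and at -4.25 in T176. The mean of 9 luminal markers, each centred on its mean over the 12 tumours, was -4.16 in T176 and between -0.34 and 1.04 elsewhere. The luminal list as a whole was thus lowest in T176, where 8 of the 9 had their lowest value. The markers were not all high elsewhere: Krt19, a luminal keratin with a wider spread, lay below the reference in 7 tumours, among them T284 (-3.66), T172 (-3.43) and T2023 (-3.00). Esr1, the oestrogen receptor, was highest in T176 (1.27) but was not called between tumours (limma adjusted p = 0.419). In bulk RNA, fewer cells of a type and less RNA per cell cannot be told apart.

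Keratinocytes on their way to the surface first exchange basal keratins for Krt1 and Krt10, then make involucrin, envoplakin and periplakin as the first scaffold of the envelope, and finally add loricrin, filaggrin and the small SPRR and LCE proteins, which transglutaminases cross-link. Many of these genes lie side by side in a gene cluster called the epidermal differentiation complex. Normal mammary gland epithelium does not cornify except towards the nipple, but mammary tumours can contain squamous areas that do. Krt16 and its partners mark activated and hyperproliferative squamous epithelium, whereas Krt10, loricrin and filaggrin mark the normal course of epidermal differentiation.

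Promoters of 6 members are printed because the results turn on how these genes differ: Sprr2d and Sprr2h varied widely over the tumours, Sprr2k is a neighbour with a similar promoter that was not called, and Krt10, Lor and Flg separated tumours in which Sprr2d was equally high. Each is the 250 bases before the start site in RefSeq (build GRCm38.p6), 5′ to 3′ on the strand of the gene, with matches to the AP-1 motif TGANTCA and to the TATA box TATAAA in capitals.
Sprr2d, chr3:92338890-92339139, plus strand: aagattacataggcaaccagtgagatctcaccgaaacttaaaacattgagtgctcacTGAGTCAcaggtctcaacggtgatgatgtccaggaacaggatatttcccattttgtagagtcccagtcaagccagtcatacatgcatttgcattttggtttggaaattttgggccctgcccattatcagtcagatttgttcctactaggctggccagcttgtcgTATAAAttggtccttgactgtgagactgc
Sprr2h, chr3:92385435-92385684, plus strand: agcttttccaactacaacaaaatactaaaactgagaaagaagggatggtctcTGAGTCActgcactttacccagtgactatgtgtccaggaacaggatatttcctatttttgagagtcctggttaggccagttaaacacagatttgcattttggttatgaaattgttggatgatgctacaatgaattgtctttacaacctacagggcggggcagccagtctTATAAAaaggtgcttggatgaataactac
Sprr2k, chr3:92432332-92432581, plus strand: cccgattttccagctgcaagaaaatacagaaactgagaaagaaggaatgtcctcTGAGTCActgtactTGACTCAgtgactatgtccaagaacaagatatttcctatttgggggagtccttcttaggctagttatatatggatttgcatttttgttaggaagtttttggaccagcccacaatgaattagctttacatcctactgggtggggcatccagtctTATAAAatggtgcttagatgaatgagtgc
Krt10, chr11:99389365-99389614, minus strand: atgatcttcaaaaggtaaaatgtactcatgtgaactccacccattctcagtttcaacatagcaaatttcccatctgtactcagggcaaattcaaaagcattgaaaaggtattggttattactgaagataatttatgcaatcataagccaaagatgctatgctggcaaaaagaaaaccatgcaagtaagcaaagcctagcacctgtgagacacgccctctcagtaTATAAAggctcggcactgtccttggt
Lor, chr3:92083143-92083392, minus strand: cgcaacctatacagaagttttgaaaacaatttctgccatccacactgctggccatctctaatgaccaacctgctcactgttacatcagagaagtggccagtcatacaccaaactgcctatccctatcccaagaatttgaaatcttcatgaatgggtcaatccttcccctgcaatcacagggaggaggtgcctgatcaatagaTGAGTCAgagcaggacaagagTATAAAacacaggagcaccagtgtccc
Flg, chr3:93273296-93273545, plus strand: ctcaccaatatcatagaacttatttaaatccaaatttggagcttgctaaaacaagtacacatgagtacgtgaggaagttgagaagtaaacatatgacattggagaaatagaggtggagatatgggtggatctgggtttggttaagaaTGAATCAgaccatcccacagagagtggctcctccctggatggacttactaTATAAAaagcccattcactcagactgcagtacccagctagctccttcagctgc

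A promoter was found in the RefSeq table for 43 of the 57 members, and both strands of the 250 bases were searched. AP-1 is the family of Fos and Jun factors. Its motif was searched as TGANTCA, with any base at N, and was present in 16 of the 43 (37.2%), against 7.82% of 27025 genes in the table. The match printed for Flg, TGAATCA, has A at N, and the other AP-1 matches printed have G or C. TATAAA was present in 19 of the 43 (44.2%), against 14.3% of all genes. The motif AACNGGTT, which Grainyhead-like factors of surface epithelium recognise, was in 1 of the 43 (2.33%, in Rptn), against 2.0% of all genes. These matches are descriptions of letters and neither show that a factor binds nor how a gene is driven. Neighbouring genes may also share sequence by descent: the Sprr2d and Sprr2e promoters were identical at 224 of 248 aligned bases (90.3%), Sprr2h and Sprr2k at 81.9%, and Sprr2d and Sprr2h at 70.8%. The lowest identity among the Sprr2 promoters was 54.8% (Sprr2a1 and Sprr2k). Gaps were not counted and no unrelated promoters were aligned, so these shares have no background. Sprr2k holds AP-1 matches at 196 and 182 bases before the start, and Sprr2h at 198. Even so, the SD of the log2 ratio over the 12 tumours was 3.05 for Sprr2d but 0.70 for Sprr2e, and 2.56 for Sprr2h but 0.30 for Sprr2k. Members of the Sprr2 and Lce1 families are related copies, so their probes may bind each other's transcripts. Transcript and probe sequences were not compared, and a value assigned to 1 member of these families is uncertain.

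Most cornified envelope genes differed between tumours far more than between the 2 arrays of T172 or of T284. By limma's moderated F-test, adjusted over all genes after Benjamini-Hochberg, 47 of the 57 (82.5%) differed between tumours at an adjusted p under 0.05, against 18.4% of all 16877 genes. At an adjusted p under 0.01 the count was 41 of 57, against 9.42% of all genes. The median SD over tumours was 1.78 among the 57 and 0.39 among all genes. An SD of at least 2 was reached by 23 members, against 0.729% of all genes (123 genes), and 21 members were among the 100 genes with the widest spread. The 10 that were not called were Sprr2b, Sprr2g, Sprr2k, Lce1g, Lce1l, Lce1m, Krt4, Dsc3, Cdsn and Klk8 (limma adjusted p from 0.0881 for Lce1m to 0.895 for Lce1g). The spread within a tumour could be taken from T172 and T284 alone, which have 2 arrays each. Most members were low in both, with a median log2 ratio of -2.32 in each. The spread between arrays of a tumour with high values was therefore not measured and was assumed to be the same. Between the arrays of T172 the members differed by a median of 0.31 (0.31 for all genes), and between those of T284 by 0.26 (0.34 for all genes). The widest gaps were 2.37 for Dsc1 in T172 and 2.10 for Krt4 in T284.

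**Figure D1:**
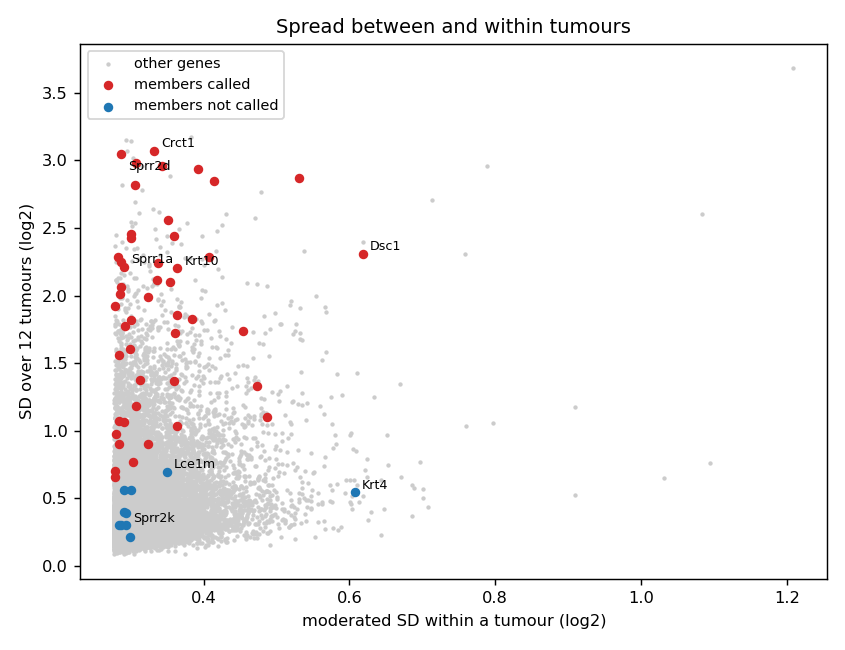
Each point is a gene, with its moderated SD within a tumour (x axis, log2) and its SD over the 12 tumours (y axis, log2). Red points are the 47 members called by the F-test, blue points the 10 members not called and grey points all other genes, and most red points lie above an SD of 1 while the within-tumour SD of most members is near 0.3.

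The same few tumours were high or low for most of these genes. T221 was among the 4 highest tumours for 55 of 57 members and the highest for 29. T2023 was among the 4 highest for 53, T372 for 49 and T135 for 41. At the other end, T172 was among the 4 lowest for 51 members, T284 for 49, T920 for 48 and T646 for 36, and T920 was the lowest of all for 25. T2134, T160, T55 and T176 lay between. Over the 12 tumours the median correlation of 2 members was 0.774 over 1596 pairs, with 98.6% of pairs above 0. These values share the same 14 arrays and describe the members without a test. The profiles of 30 members correlated with the mean of the centred members above 0.9, and those of 6 members (Lce1m, Lce1g, Lce1l, Klk8, Cdsn and Dsc3) below 0.5. This mean includes the member itself and follows members with a wide spread most, so part of these correlations is built in.

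**Figure D2:**
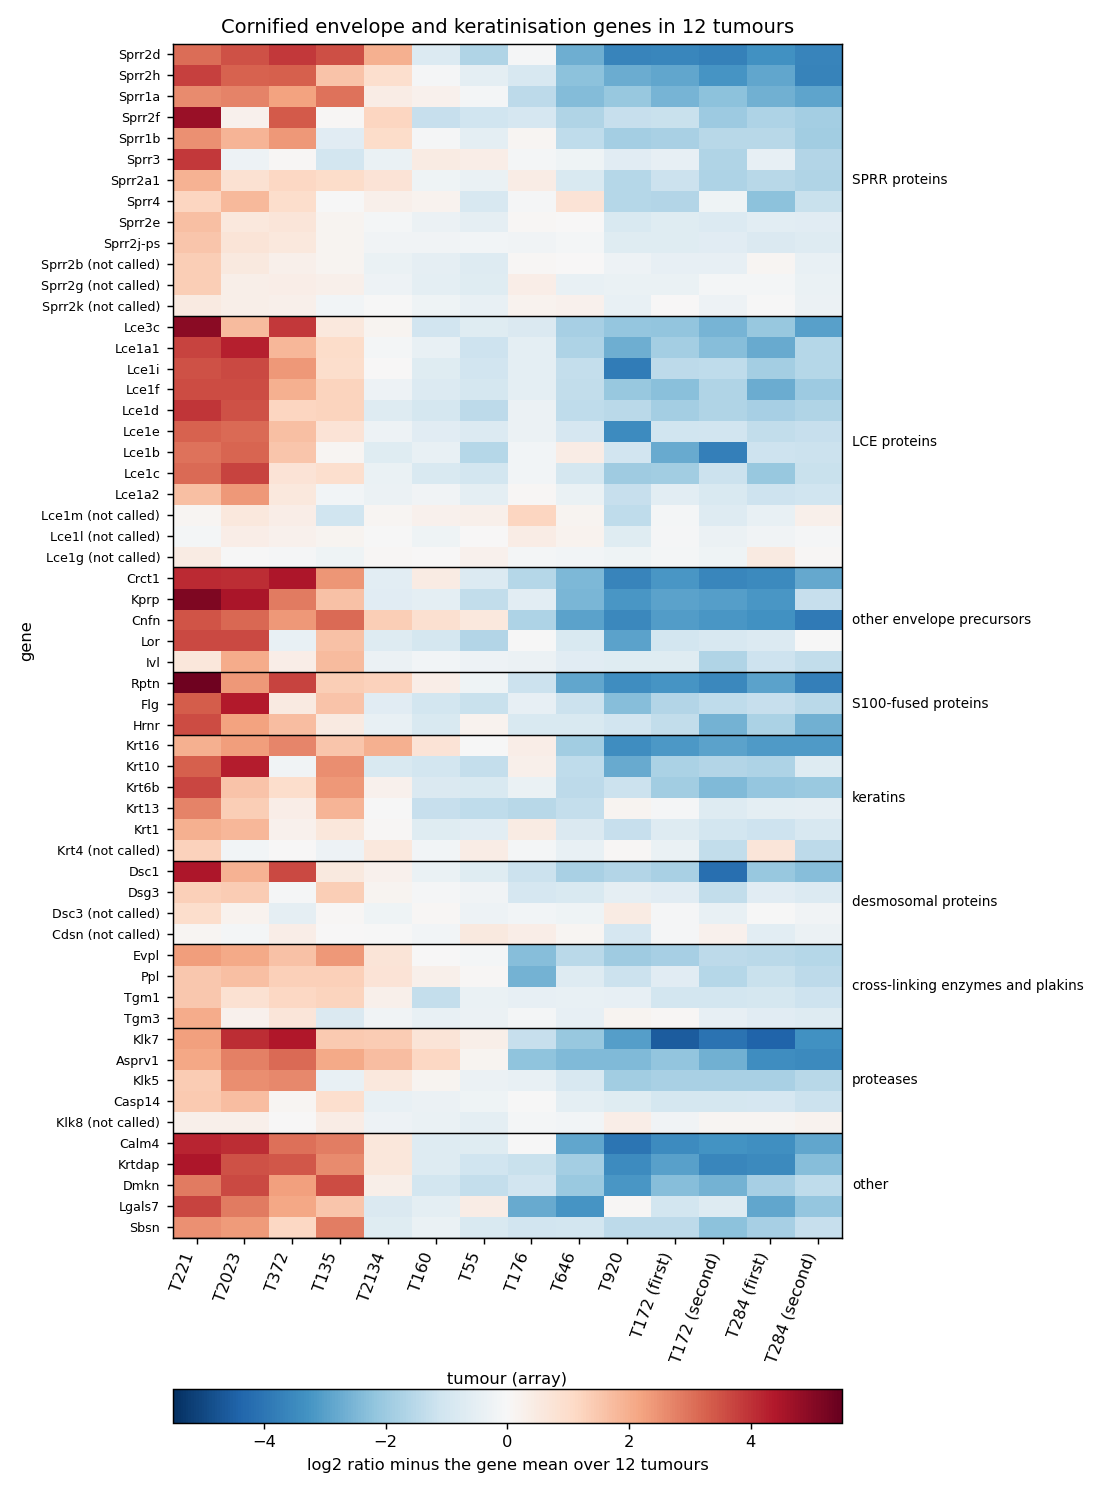
Rows are the 57 genes in their roles and columns the 14 arrays, with the tumours ordered by their member values. Colour gives the log2 ratio minus the mean of the gene over the 12 tumours, and the columns of T221, T2023, T372 and T135 are red in most rows while those of T646, T920, T172 and T284 are blue.

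Each tumour was next compared with the mean of the other 11. This asks how far it stood out beyond the spread between arrays, as measured in T172 and T284 alone. In T221, 47 of the 57 genes were higher (3.68% of all genes were called higher), with a median difference of 2.76. In T2023, 38 were higher (2.28% of all genes), with a median of 2.26, and in T372, 23 (1.85%), with a median of 1.26. In T135, 21 were higher (1.93% of all genes), with a median of 1.12. None of the 57 was called lower in these 4 tumours by limma, against 0.64% of all genes in T221, 1.46% in T2023, 0.0951% in T372 and 0.896% in T135. At an unadjusted p under 0.05 the counts of lower members were 2 in T135 and 0 in T221, T2023 and T372, with no count over all genes beside them. T284 and T172 each had 41 members lower (7.82% and 6.06% of all genes were called lower), with medians of -1.71 and -1.64. Both have 2 arrays, which lowers the standard error of their differences. T920 had 28 lower (1.63% of all genes; median -1.63) and T646 had 24 (1.92%; median -1.05). Without T221 the count for T646 was 13. The median difference over all genes stayed between -0.04 and 0.03 in every tumour.

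The remaining 4 tumours stood near the middle. In T176 10 members were lower (6.49% of all genes; median -0.35), namely Asprv1, Cnfn, Crct1, Dmkn, Evpl, Krt13, Lgals7, Ppl, Rptn and Sprr1a, and 17 were lower when both arrays of T172 were left out. In T2134, Krt16, Sprr2d and Asprv1 were higher (3 of 57, against 0.807% of all genes) while the median of all members was -0.01. This count became 5 or 6 without 1 array of T172, T221, the second array of T284 or T372. Sprr2d alone was lower in T55 (0.149% of all genes were called lower), by -1.82 ± 0.30 (SE; limma adjusted p = 0.0402), a count that was 0 without T135, T2023, T221 or T372, and 2 to 8 without T160, T2134, T920 or arrays of T172 or T284. In T160 limma called no member either way (0.101% of all genes higher and 0.089% lower), with 3 higher and 17 lower at an unadjusted p under 0.05, and 2 were called lower without T172. A replicate block, a term for the second array of a tumour, changed these counts. Members called lower were then 3 in T135, 10 in T160, 15 in T55 and 19 in T176. Those called higher were 1 in T160, 1 in T176, 9 in T2134 and 32 in T135. The shares of all genes called with the block were not counted, so the rise cannot be read as particular to the members. The 12 comparisons share arrays, so their counts are given side by side only. A stricter question is whether 1 tumour lies outside the spread among the other 11. There limma called 1 member over all 12 tumours (0.394% of all such comparisons over all genes): Sprr3 was higher in T221 by 4.25 ± 0.52 (SE, 1 tumour against 11; limma adjusted p = 0.00574; 0.113% of all genes were called higher). At an unadjusted p under 0.05 this comparison gave 23 members in T221, 12 in T2023 and at most 5 in any other tumour. The shares of all genes at an unadjusted p under 0.05 were not counted, here or for T160, so these counts have no background. Without T221 no member was called, and without T372 there were 3 calls.

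**Figure D3:**
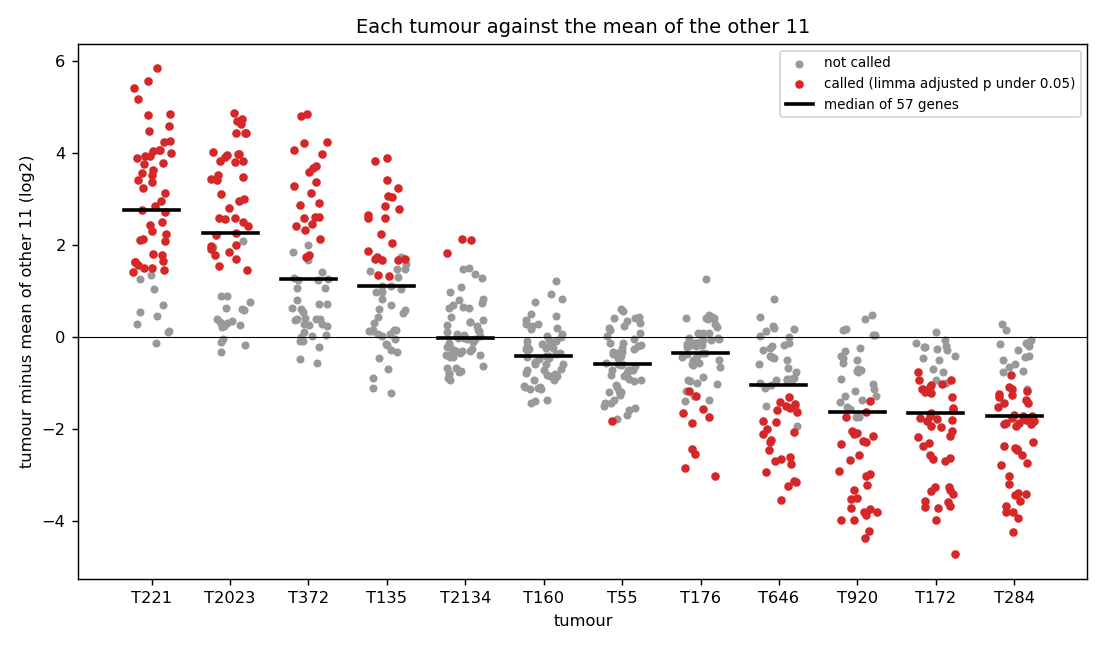
Each point is 1 of the 57 genes in 1 tumour, and the y axis gives the log2 difference between that tumour and the mean of the other 11. Red points were called by limma at an adjusted p under 0.05 and bars are medians of the 57 genes, which run from 2.76 in T221 to -1.71 in T284.

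The SPRR genes encode small proline-rich proteins that act as cross-bridges in the envelope, and 10 of 13 were called. Sprr2d stood at 4.20 in T372, 3.85 in T135, 3.81 in T2023, 3.42 in T221, 2.29 in T2134, 0.27 in T176, -0.43 in T160, -1.34 in T55, -2.36 in T646, -3.16 in T284, -3.32 in T172 and -3.32 in T920. The values fell into a high set of 5 tumours from T372 to T2134 and a low set from T646 to T920, with T176, T160 and T55 between (limma adjusted p = 3.27e-05). Sprr1a, which is also induced in wounded epithelium, stood at 4.11 in T135, 3.85 in T2023, 3.74 in T221, 3.34 in T372, 1.53 in T2134, 1.39 in T160, 1.01 in T55, -0.30 in T176, -0.95 in T920, -1.27 in T646, -1.28 in T172 and -1.64 in T284. Here T135 was highest, and the distance between T372 and the next tumour, T2134, was larger than any other gap. Sprr2f stood at 6.05 in T221, 4.68 in T372, 2.48 in T2134, 1.53 in T2023, 1.37 in T135, 0.37 in T176, 0.21 in T55, 0.04 in T160, 0.01 in T920, -0.31 in T172, -0.37 in T646 and -0.48 in T284. Only T221 and T372 exceeded 3, and its difference of 5.19 ± 0.35 (SE) in T221 was among the widest of any member (limma adjusted p = 0.000103).

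Sprr2h ranged from -2.59 in T284 to 4.42 in T221 (median 0.38) and Sprr1b from -1.35 in T920 to 3.05 in T221 (median 0.21). Sprr1b shows how single tumours part from the common order: T135, the highest tumour for Sprr1a, stood at -0.11 for Sprr1b, below T2134, T176, T160 and T55. Sprr3, an SPRR protein of internal stratified epithelia such as oesophagus, was 2.61 in T221 and between -2.32 and -0.85 in the other 11 tumours, and without T221 it was not called (limma adjusted p = 0.466). Sprr2a1 ranged from -2.59 in T920 to 0.91 in T221 (median -0.94), and Sprr4 from -1.89 in T284 to 1.64 in T2023 (median -0.09). Sprr4 lost its call without T2023 (limma adjusted p = 0.0511). Sprr2e and the annotated pseudogene Sprr2j-ps varied little beside these, with SDs of 0.70 and 0.66, and lost their calls without T221 (limma adjusted p = 0.113 and 0.129). Sprr2b, Sprr2g and Sprr2k were not called between tumours, with SDs of 0.56, 0.56 and 0.30. In T221 the contrast nevertheless called Sprr2b and Sprr2g higher, at 1.75 and 1.88.

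The LCE genes encode late cornified envelope proteins, which are added last on the inner face of the shell, and 9 of 12 were called. Lce3c, of a group that is induced when skin is injured, stood at 4.61 in T221, 3.53 in T372, 1.39 in T2023, 0.20 in T135, -0.23 in T2134, -1.02 in T55, -1.16 in T176, -1.41 in T160, -2.20 in T646, -2.50 in T920, -2.72 in T172 and -2.91 in T284. Only T221, T372, T2023 and T135 lay above the reference, and T221 was higher by 5.43 ± 0.37 (SE; limma adjusted p = 0.000103). The Lce1 genes, expressed in normal epidermis, had another order at the top. Lce1a1 stood at 0.94 in T2023, 0.42 in T221, -1.47 in T372, -2.29 in T135, -3.40 in T2134, -3.74 in T160, -3.87 in T176, -4.46 in T55, -5.01 in T646, -5.42 in T172, -5.49 in T284 and -5.98 in T920. T2023 and T221 were the only tumours above the reference, with T372 more than 1 log2 unit below them, and T2023 was higher than the mean of the others by 4.64 ± 0.42 (SE; limma adjusted p = 0.000733).

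Lce1i, Lce1e and Lce1f ranged up to 1.08, 1.26 and 1.80. Lce1i and Lce1e were far lower in T920 than anywhere else, at -6.43 and -5.45, with the next lowest tumour at -4.29 and -3.30. Lce1b had its lowest value in T172 (-5.51), where its arrays read -5.01 and -6.01. Lce1d and Lce1c ranged from -3.90 in T172 to 1.77 in T221 (median -2.99) and from -4.80 in T920 to 0.87 in T2023 (median -3.43). Lce1a2 varied less, from -2.40 in T920 to 1.24 in T2023 (median -1.40). Lce1g, Lce1l and Lce1m were not called. Lce1g lay between -0.09 and 0.59 and Lce1l between -1.49 and -0.40, whereas Lce1m was low in every tumour, from -5.61 to -3.06. Lce1m was called without either array of T172 (limma adjusted p = 0.0174 and 0.0266), without both (0.0201) and without T284 (0.0457).

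The other envelope precursors were all called (5 of 5), and 3 of them were among the widest members. Crct1, encoding a cysteine-rich protein of the same gene cluster, stood at 2.65 in T372, 2.31 in T221, 2.27 in T2023, 0.63 in T135, -1.35 in T160, -2.37 in T2134, -2.57 in T55, -3.39 in T176, -4.26 in T646, -4.96 in T284, -5.19 in T172 and -5.44 in T920. A gap of nearly 2 log2 units lay between T135 and the next tumour, T160, and the lowest tumour, T920, was -3.97 ± 0.35 (SE) from the mean of the others (limma adjusted p = 0.00109). Kprp, a keratinocyte proline-rich protein, stood at 2.02 in T221, 1.39 in T2023, -0.23 in T372, -1.50 in T135, -3.63 in T160, -3.70 in T176, -3.70 in T2134, -4.47 in T55, -5.34 in T284, -5.62 in T646, -6.07 in T172 and -6.31 in T920. Only T221 and T2023 were above the reference. Cnfn, cornifelin, ranged from -3.30 in T284 to 3.77 in T221 (median 1.02), and unlike Kprp lay above the reference in 7 tumours.

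Loricrin and involucrin are the best known precursors. Lor stood at -0.48 in T2023, -0.49 in T221, -2.52 in T135, -4.14 in T176, -4.50 in T284, -4.54 in T372, -4.84 in T2134, -4.94 in T646, -5.05 in T172, -5.08 in T160, -5.74 in T55 and -7.06 in T920. No tumour exceeded the reference, T221 and T2023 came closest, and T372, at -4.54, fell among the tumours in which most members were low. The difference of T2023 from the mean of the others was 3.97 ± 0.34 (SE; limma adjusted p = 0.000483), and that of T372 was -0.46 ± 0.34 (adjusted p = 0.9). Ivl, which is laid down early in the envelope, stood at 1.17 in T2023, 0.85 in T135, -0.23 in T221, -0.50 in T372, -1.04 in T160, -1.17 in T55, -1.18 in T2134, -1.19 in T176, -1.48 in T646, -1.53 in T920, -2.05 in T172 and -2.13 in T284. Only T2023 and T135 lay above the reference, and T2023 differed by 2.23 ± 0.38 (SE; limma adjusted p = 0.0129).

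S100-fused proteins carry a calcium-binding S100 domain in front of long repeats, and the 3 that were measured were all called. Rptn, repetin, an envelope component of hair and some keratinising surfaces, stood at 6.08 in T221, 4.44 in T372, 3.09 in T2023, 2.08 in T135, 1.98 in T2134, 1.07 in T160, 0.48 in T55, -0.46 in T176, -2.15 in T646, -2.64 in T284, -2.69 in T172 and -2.72 in T920. It gave the largest difference of any member in any tumour, 5.85 ± 0.36 (SE) in T221 (limma adjusted p = 6.3e-05). Flg, filaggrin, which bundles keratin filaments in the uppermost living layer, stood at 1.47 in T2023, 0.46 in T221, -1.32 in T135, -2.37 in T372, -3.34 in T176, -3.49 in T2134, -3.88 in T160, -4.06 in T646, -4.12 in T55, -4.26 in T284, -4.38 in T172 and -5.21 in T920. T2023 and T221 were above the reference, T135 and T372 followed at a distance, and T372 did not differ detectably from the mean of the others (0.56 ± 0.30, SE; limma adjusted p = 0.73). Hrnr, hornerin, a filaggrin-like protein, ranged from -4.82 in T284 to 0.99 in T221 (median -3.24), with all tumours but T221 below the reference.

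Of 6 keratins 5 were called. Krt16, an activation keratin, stood at 4.64 in T372, 4.25 in T2023, 3.92 in T221, 3.89 in T2134, 3.49 in T135, 2.72 in T160, 2.33 in T176, 1.92 in T55, 0.03 in T646, -1.11 in T172, -1.17 in T284 and -1.44 in T920. Its high values reached further down the order of tumours than those of other members: 8 tumours stood at 1.92 or above, T646 was near the reference, and the 3 lowest were T284, T172 and T920. Krt16 was higher than the mean of the others by 2.93 ± 0.29 in T372 and by 2.11 ± 0.29 in T2134 (SE; limma adjusted p = 0.00127 and 0.01). Krt10, the suprabasal keratin of epidermis, stood at 1.25 in T2023, 0.22 in T221, -0.49 in T135, -2.79 in T176, -3.26 in T372, -3.91 in T2134, -4.09 in T160, -4.25 in T284, -4.36 in T55, -4.45 in T646, -4.73 in T172 and -5.83 in T920. Only T2023 and T221 lay above the reference, T135 was just below, and a gap of more than 2 log2 units separated it from the other tumours. T2134, with Krt16 as high as in T221, had Krt10 at -3.91.

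Krt1, the partner of Krt10, was measured by 2 probes that disagreed. One ranged from -5.63 in T920 to 0.95 in T221, and the other stayed between -0.16 in T160 and 1.05 in T176. Their average ranged from -2.46 in T920 to 0.73 in T221 (median -1.47) and was called (limma adjusted p = 0.00279), but it understates the range of the first probe, and which of them reads Krt1 is not known from the files. Krt6b, a partner of Krt16, stood at 4.77 in T221, 3.47 in T135, 2.67 in T2023, 2.08 in T372, 1.34 in T2134, 0.73 in T176, 0.32 in T160, 0.27 in T55, -0.07 in T920, -0.35 in T646, -0.99 in T284 and -1.07 in T172. T221 was highest with T135 next, an order that differed from that of Krt16. Krt13, a keratin of internal stratified epithelia such as mouth and oesophagus, ranged from -1.01 in T176 to 3.22 in T221 (median 0.30). Its 3 lowest tumours were T176, T55 and T646, not T172, T284 or T920, which lay at 0.13, -0.02 and 0.65. Krt4, its partner, was not called: it reached 0.32 in T221, and the arrays of T284 gave -0.25 and -2.35.

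**Figure D4:**
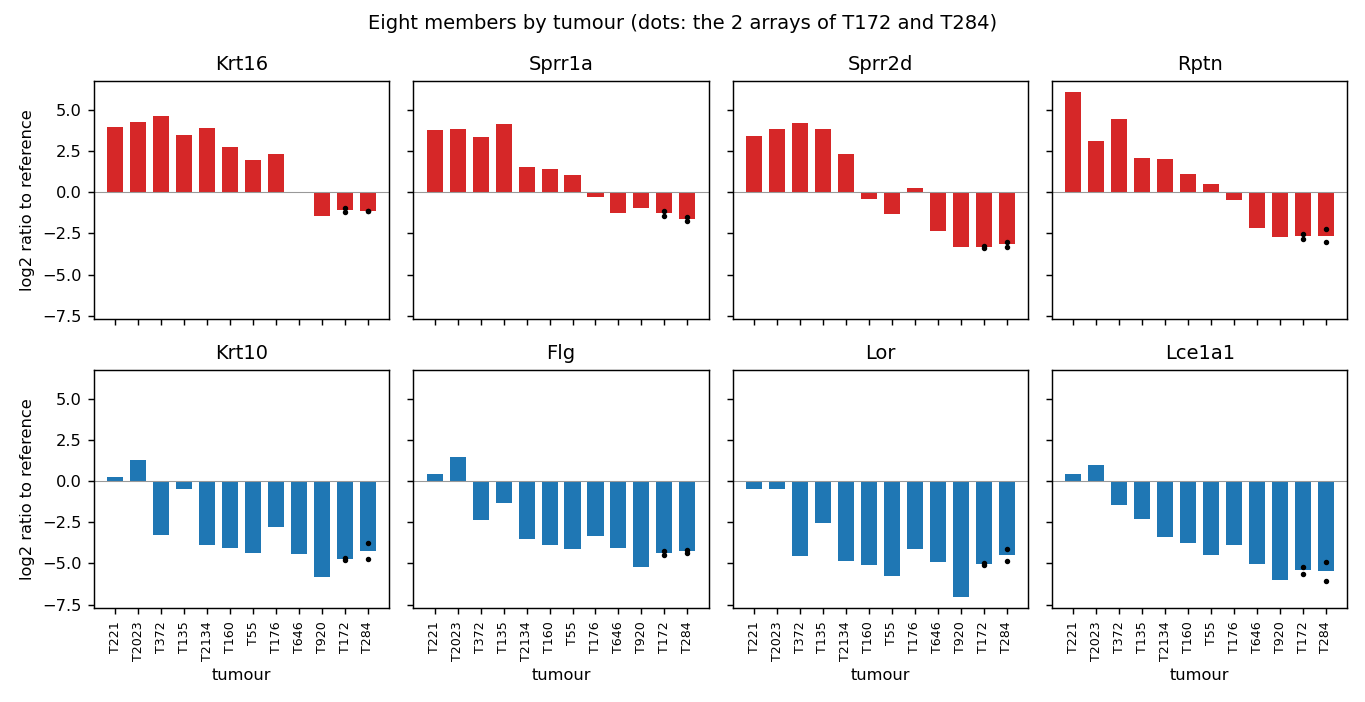
Bars give the log2 ratio to the reference RNA in each of the 12 tumours for 8 members, and dots the 2 arrays of T172 and of T284. Krt16, Sprr1a, Sprr2d and Rptn (top) are above 3 in T372, whereas Krt10, Flg, Lor and Lce1a1 (bottom) are below -1 there and highest in T2023 and T221.

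Desmosomal genes were less uniform, with 2 of 4 called. Dsc1, desmocollin 1 of the upper epidermal layers, stood at 4.85 in T221, 4.05 in T372, 2.33 in T2023, 0.95 in T135, 0.63 in T2134, 0.02 in T160, -0.25 in T55, -0.77 in T176, -1.19 in T920, -1.36 in T646, -1.83 in T284 and -2.58 in T172. T221 and T372 were the highest, but the arrays of T172 read -1.40 and -3.76, so its lowest value is poorly fixed. Dsg3, desmoglein 3 of the deep layers, stood near 2 in T2023 (2.05), T135 (1.99) and T221 (1.94) and between -0.37 and 0.77 in the other 9, with T372 at 0.56. Dsc3, a desmocollin of the deep layers, and Cdsn, corneodesmosin of the cornified layer, were not called (limma adjusted p = 0.363 and 0.342), with SDs of 0.40 and 0.39.

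Transglutaminases and the plakins they first cross-link were all called (4 of 4). Evpl, envoplakin, stood at 2.82 in T135, 2.73 in T221, 2.50 in T2023, 2.02 in T372, 1.12 in T2134, 0.43 in T160, 0.32 in T55, -1.06 in T646, -1.11 in T284, -1.21 in T172, -1.51 in T920 and -1.91 in T176. T135 was highest, and T176 was lowest, as it was for 3 of the 57 members. Ppl, periplakin, which pairs with envoplakin, ranged from -1.92 in T176 to 2.33 in T2023 (median 0.85), and in T176 it was -2.84 ± 0.38 and Evpl -2.55 ± 0.30 (SE) from the mean of the others (limma adjusted p = 0.000986 and 0.000553). Tgm1, the membrane-bound transglutaminase, ranged from -0.93 in T160 to 1.87 in T221 (median -0.01). The 4 tumours above 1 were T221, T135, T372 and T2023. Tgm3, a transglutaminase of hair and upper epidermis, was 2.24 in T221 and at most 0.85 elsewhere, and was not called without T221 (limma adjusted p = 0.311).

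Of 5 proteases 4 were called. Klk7, a kallikrein that cuts the bonds between dead surface cells, stood at 3.49 in T372, 3.14 in T2023, 1.31 in T221, 0.53 in T135, 0.46 in T2134, -0.22 in T160, -0.60 in T55, -2.20 in T176, -3.02 in T646, -3.97 in T920, -4.81 in T284 and -5.26 in T172. T372 was highest, with T2023 close, and T221, the highest tumour for most members, came next. T172 differed from the mean of the others by -4.72 ± 0.30 (SE; limma adjusted p = 3.78e-05). Asprv1, an aspartic protease that processes filaggrin, stood at 2.04 in T372, 1.69 in T2023, 1.07 in T221, 1.01 in T135, 0.62 in T2134, 0.07 in T160, -0.92 in T55, -3.29 in T176, -3.48 in T172, -3.49 in T646, -3.50 in T920 and -4.54 in T284. Its values fell into 7 tumours above -1 and 5 below -3, with T176 in the lower set. Klk5, which activates Klk7, was above the reference only in T372 (1.10) and T2023 (1.02), and was -1.95 in T135. Casp14, a caspase of terminal keratinocyte differentiation, ranged from -1.40 in T284 to 1.37 in T2023 (median -0.59). Klk8 was not called and lay between -0.07 and 0.88.

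The remaining members are secreted or cytoplasmic products of suprabasal keratinocytes, and all 5 were called. Calm4, a calmodulin-like protein of skin, stood at 2.88 in T221, 2.74 in T2023, 1.70 in T372, 1.47 in T135, -0.69 in T2134, -1.35 in T176, -1.99 in T55, -2.05 in T160, -4.20 in T646, -4.44 in T284, -4.69 in T172 and -5.33 in T920. T221 and T2023 were highest, with a distance of more than 2 log2 units between T135 and T2134. Krtdap, a secreted keratinocyte differentiation protein, stood at 3.57 in T221, 2.63 in T2023, 2.53 in T372, 1.73 in T135, -0.28 in T2134, -1.59 in T160, -1.98 in T55, -2.13 in T176, -2.77 in T646, -3.81 in T284, -4.17 in T172 and -4.36 in T920. Its order at the top was that of Calm4. Dmkn, dermokine, ranged from -4.16 in T920 to 2.68 in T2023 (median -1.99) and Sbsn, suprabasin, whose gene lies beside Dmkn and Krtdap, from -3.37 in T172 to 1.32 in T135 (median -2.27). For these T135 was first (Sbsn) or second (Dmkn). Lgals7, galectin 7, a sugar-binding protein of keratinocytes, stood at 3.20 in T221, 2.34 in T2023, 1.63 in T372, 1.02 in T135, -0.13 in T55, -0.47 in T920, -1.05 in T160, -1.33 in T2134, -1.37 in T172, -3.02 in T284, -3.28 in T176 and -3.76 in T646. T920, T55 and T160 lay nearer the reference than T176, T284 and T646, so the low end of Lgals7 differed from that of most members.

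T372 and T2023 were set side by side after their values were seen, because they were alike in some members and far apart in others, and their difference was not tested. In T372 minus T2023, 34 of the 57 members were within 1 log2 unit, among them Krt16 (a difference of 0.39) and Sprr2d (0.38). T372 was lower by more than 2 in 6 members: Krt10 (-4.51), Lor (-4.06), Flg (-3.84), Lce1c (-2.96), Lce1a1 (-2.42) and Lce1d (-2.32). Of the 11 Lce1 genes, 8 were lower by more than 1. T372 was above T2023 in 20 members, most in Sprr2f (3.15), Lce3c (2.14), Dsc1 (1.72) and Rptn (1.36). T372 thus matched or exceeded T2023 in Krt16, Sprr2d, Sprr2f and Rptn and lay far below it in Krt10, Lor and Flg. In T2023 Krt10 and Flg lay above the reference. Against the mean of the other 11 tumours, T372 differed by only -0.22 for Krt10, -0.46 for Lor and 0.56 for Flg. T221 shared the high Sprr2f and Rptn of T372 and the Krt10, Flg and Lor values near the reference of T2023, and was above T2023 in 33 of 57 members. T135 exceeded T2023 in 10. Each of these 4 tumours has 1 array, and the moderated SD within a tumour was 0.36 for Krt10, 0.32 for Lor and 0.29 for Flg.

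**Figure D5:**
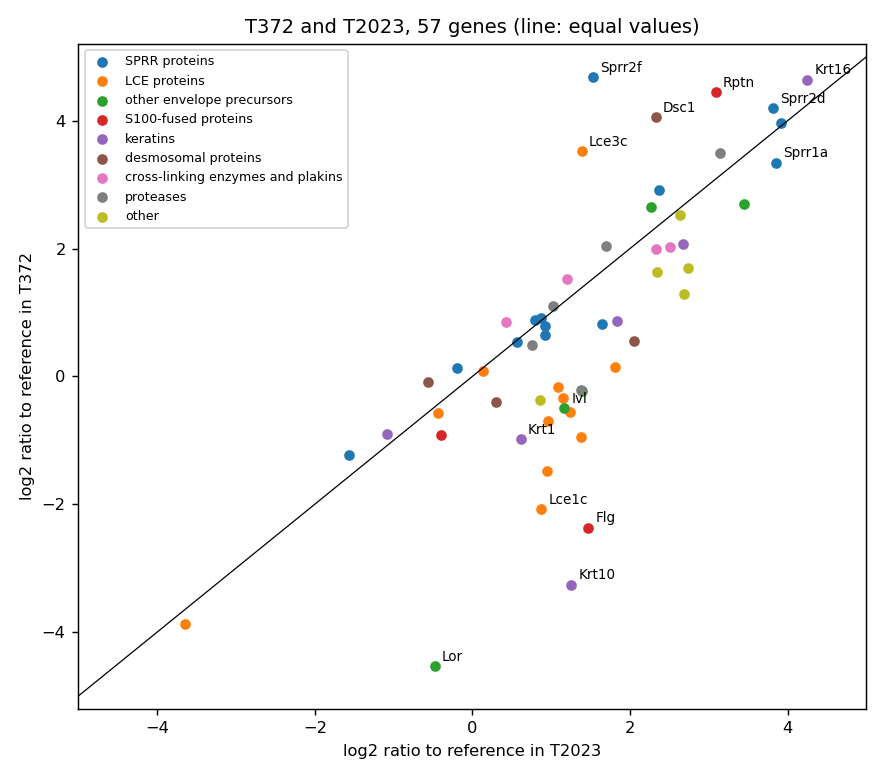
Each point is 1 of the 57 genes, with its log2 ratio to the reference RNA in T2023 (x axis) and in T372 (y axis), coloured by role, and the line marks equal values. Krt10, Lor, Flg and Lce1c lie far below the line and Sprr2f, Lce3c and Dsc1 above it.

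Genes linked by function, gene family or position were compared across the 12 tumours in 11 pairs. Permutation tests of 100000 resamples were used for Pearson's r and for Spearman's rho. Krt6a and Dsg1a had no values, so 2 of the 13 listed pairs were left out. The pairs were chosen with earlier results of these data known, and the adjustment over the pairs does not cover that choice. After adjustment over the pairs, 8 of the 11 passed by Pearson's r and 9 by Spearman's rho, the additional pair being Trp63 and Dsg3. As a scale for these values, the median r of any 2 members was 0.774, whereas the tests ask only whether r differs from 0. A pass thus does not set a pair apart from other pairs of members, and passes over all pairs were not counted. Evpl and Ppl gave r = 0.964 and rho = 0.951 (permutation adjusted p = 3.67e-05 and 0.00022), and r = 0.968 without the 2 tumours farthest from the median of Evpl. Krt1 and Krt10 gave r = 0.951 and rho = 0.937 (permutation adjusted p = 3.67e-05 and 0.000275), and 0.876 without the 2 farthest. Klk5 and Klk7 gave r = 0.951 and rho = 0.909 (permutation adjusted p = 3.67e-05 and 0.00033), and 0.920 without the 2 farthest. The smallest p that the resampling can give, 1e-05, was reached by these 3 pairs for r.

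Lor and Flg gave r = 0.960 and rho = 0.832 (permutation adjusted p = 6.6e-05 and 0.00275), and 0.868 without the 2 farthest. Without T135 it was 0.958 over the remaining 11 tumours (permutation adjusted p = 0.000377), but T2023 and T221 then stood apart from the others for Lor, and within the other 9 tumours r was 0.725 (exact permutation adjusted p = 0.054). Tgm1 and Ivl, an enzyme and its substrate, gave r = 0.781 and rho = 0.727 (permutation adjusted p = 0.00333 and 0.015), and 0.721 without the 2 farthest. Over the remaining 11 tumours r was 0.80 without T221 and 0.797 without T2134 (permutation adjusted p = 0.00426 and 0.00473). The values then fell into clusters, and within the larger one r was 0.689 (9 tumours, without T221; exact permutation adjusted p = 0.0551) and 0.292 (7 tumours, without T2134; 0.528). Sprr1a and Sprr1b gave r = 0.80 and rho = 0.720 (permutation adjusted p = 0.00411 and 0.015), and 0.943 without T284 and T135. The r of Tgm1 with Ivl and of Sprr1a with Sprr1b thus lay close to the median of 0.774 for any 2 members.

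Sbsn, Dmkn and Krtdap, which are neighbours, behaved alike. Sbsn gave r = 0.959 and rho = 0.909 with Dmkn (permutation adjusted p = 6.6e-05 and 0.00033), and r = 0.935 and rho = 0.923 with Krtdap (permutation adjusted p = 0.000128 and 0.00033). Without the 2 farthest tumours r was 0.945 and 0.941. Sbsn and Dmkn gave r = 0.973 over the 11 tumours left without T2134 and 0.959 without T372 (permutation adjusted p = 0.00011 and 0.000257). The values then fell into clusters, and within the larger one r was 0.655 (7 tumours, without T2134; exact permutation adjusted p = 0.152) and 0.677 (8 tumours, without T372; 0.0864). Krt4 and Krt13 were not related detectably (r = 0.419 and rho = 0.210, permutation adjusted p = 0.193 and 0.564), and r was -0.104 without T172 and T221. Dsg3 split the tumours into T221, T135 and T2023 on one side and 9 on the other, so r was taken within the 9. There Dsg3 and Dsc3 gave r = -0.12 and rho = -0.05 (exact permutation adjusted p = 0.780 and 0.912), and r = -0.157 without the 2 farthest. Trp63, which activates desmosomal genes of basal cells, gave r = 0.680 and rho = 0.783 with Dsg3 (exact permutation adjusted p = 0.0615 and 0.0211). This r was 0.978 without T920 and T372, 2 tumours chosen by their distance from the median of Trp63.

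Regulators of epidermal differentiation were read from a list of 17, of which 14 were measured and 10 (71.4%) were called by the F-test, against 18.4% of all genes. Trp63, without which no stratified epithelium forms, gave 3.57 in T221, 3.21 in T2023, 2.41 in T135, 2.17 in T372, 1.89 in T920, -0.39 in T160, -0.52 in T2134, -0.86 in T55, -2.63 in T284, -2.69 in T176, -2.96 in T646 and -3.15 in T172. T920 had Trp63 above the reference although it was the lowest tumour for 25 of the 57 members. Klf4, which drives late differentiation, stood at 2.05 in T135, 2.003 in T2023, 1.89 in T221, 1.38 in T372, 0.75 in T176, 0.45 in T55, 0.05 in T160, -0.26 in T2134, -2.43 in T646, -3.05 in T920, -3.94 in T172 and -4.10 in T284. T176 had Klf4 above the reference, and T920 was low. Gata3, shared by epidermis and luminal mammary cells, was lowest in T176 (-4.19) and between 0.43 and 2.37 elsewhere. Of 20 barrier lipid, protease and junction genes 16 were measured and 12 were called (75.0%), among them Aqp3, a water and glycerol channel, Spink5, the inhibitor of Klk5 and Klk7, and Elovl4, which makes very long-chain fatty acids of the skin barrier. Spink5 was highest in T221 (4.86), T2023 (3.32) and T372 (3.30) and lowest in T646 (-2.41). Elovl4 ranged from -3.05 in T172 to 2.34 in T221, and Aqp3 from -4.14 to 5.37 in the same tumours, with 0.78 in T372.

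Markers of other cell types were read beside these genes, as means over each list after centring each gene on its mean over the tumours. All 10 basal epithelial genes were called by the F-test, against 18.4% of all genes. Their mean was highest in T2023 (2.16), T135 (1.56), T221 (1.41) and T372 (1.12) and lowest in T172 (-1.66), T284 (-1.44), T176 (-1.32) and T646 (-1.14). T920 stood at -0.33, well above T172 and T284, although the envelope genes were as low there. The genes of the list parted in T920, so this mean does not describe each of them. Trp63 stood at 1.89 there, against -3.15 in T172 and -2.63 in T284. Krt5, a basal keratin, stood at -2.90 in T920, near its -3.61 in T172 and -3.47 in T284. Krt14, the keratin of the basal layer, ranged from -2.61 in T172 to 2.93 in T2023, with -1.44 in T920. Of 54 hair follicle genes 48 were measured and 31 (64.6%) were called. The mean was 2.31 in T372, 0.96 in T2023, 0.56 in T160 and below 0 elsewhere. Krt28, Krt27 and Krt25, keratins of the inner root sheath, stood at 4.25, 4.60 and 2.54 in T372 and at -4.02, -2.32 and -2.02 in T221. Of 5 sebaceous gland genes only Mgst1 was called, and the list stood between -0.76 in T176 and 0.41 in T2134.

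Of 6 neutrophil markers 5 were measured and 3 (60.0%) were called, against 18.4% of all genes. The list means ran from 2.21 in T372, 1.93 in T221, 1.83 in T2134 and 1.82 in T135 to -2.40 in T172 and -2.55 in T284. The called genes were S100a8, S100a9 and Ltf, of which the first pair is also made by activated keratinocytes and the third by mammary epithelium. Ngp and Camp, granule proteins of neutrophils, were not called (limma adjusted p = 0.108 and 0.0797) and lay far below the reference in every tumour, from -4.09 to -1.91 and from -5.30 to -3.82. Of 5 macrophage genes 4 were measured and 3 (75.0%) were called, and the list ranged from -0.83 in T2023 to 1.09 in T646. Of 5 adipocyte genes 4 (80.0%) were called, with the mean at 2.06 in T221 and between -0.84 and 0.77 elsewhere. The part of basal, hair follicle, neutrophil or adipocyte RNA in the differences between tumours was not tested.

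Outside the member list, the 10 genes whose profiles were most like the mean of the centred members over the 12 tumours had Pearson's r from 0.969 to 0.990, given as a description without a test. In falling order they were Teddm3, Serpinb2, Stfa2, Bpifc, Il1f5, Elovl4, Adgrf4, Spink5, Aqp3 and Sdr9c7. All 10 were highest in T221. Serpinb2, a protease inhibitor that is itself cross-linked into the envelope, ranged from -2.88 in T172 to 3.82 in T221. Stfa2, a stefin of the cysteine protease inhibitors, ranged from -5.42 in T920 to 1.82 in T221. Il1f5, the interleukin 36 receptor antagonist, ranged from -4.27 in T284 to 2.97 in T221, and Sdr9c7, a dehydrogenase of barrier lipids, from -1.55 in T920 to 2.63 in T221.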

How the data were processed

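RNA of 12 tumours was measured on 14 two-colour arrays. The deposited table holds log2 values per probe, read as tumour (Cy5) over reference (Cy3) from the dyes in the labels. Base 2 was inferred from the range, -9.19 to 7.42. Array medians of 0 to 0.018 show values centred by array and not by gene. Extraction with a Qiagen kit is given per the labels' protocols. Background correction, normalization, spot filters and hybridisation batches are not given in the labels or files used here. No signal levels were at hand, which leaves weakly hybridised probes unmarked. Arrays correlated at 0.465 to 0.898, and 0.172% of values were missing.

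Of 22575 probes, 18658 had 1 gene symbol in the platform annotation, 30 several and 3887 none, and only the first were used. Symbols were updated through the RefSeq gene table (18445 probes by Entrez identifier, 24 by accession, 189 unchanged). Probes of a gene were averaged, and genes needed at least 12 arrays.

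The moderated F-test over 12 tumours, the contrast of each tumour with the mean of the other 11, and 1 tumour against 11 on tumour means (which assumes that the lone tumour varies like the others) used limma 3.58.1 in R 4.3.3. P-values were adjusted after Benjamini-Hochberg over all genes, with calls under 0.05. The prior SD was 0.313, with 7.27 degrees of freedom. Pairs were tested with scipy 1.17.1, numpy 2.4.6 and pandas 2.3.3 in Python 3.11.15, by permutation, exactly within fewer than 10 tumours. Values that left a gap over 40% of their range were split into clusters. Every member may be named; from each other list up to 3 called genes with the largest SD were named, and the 10 genes most like the members. Ngp, Camp and Esr1 fall outside this rule and were named after their values were seen. The members, lists and pairs were chosen with earlier results of these data known. The F-test, the contrast for T221 and T221 against 11 were tested on simulated data, and the pairs and promoters were not. The F-test called 62 of 100 genes simulated with an SD of 1 between tumours, and 99 of 100 with an SD of 2. For T221 against 11 the other tumours were simulated with no spread beyond that between arrays, unlike the data.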

Additional observations from a re-analysis of the deposited data

How the results depend on the processing

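Of the 57 genes, 41 were called and 6 were not called by the F-test in all 22 settings. The count of 47 became 48 after quantile normalization and 43 to 48 when 1 array was left out. With the replicate block, a term for the second array of a tumour, it was 51 (with Krt4, Lce1m, Sprr2b and Sprr2g gained). The labels do not tie these arrays to each other, but their deviations correlated between T172 and T284 (r = 0.324 over 16474 genes). Over the 12 contrasts the 277 calls became 377 with the block, 205 at an adjusted p under 0.01 and 222 to 307 when 1 array was left out. Shares of all genes were not counted with the block, nor for the contrasts in settings other than the main one.

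At an adjusted p under 0.01, members higher in T135 fell to 11 and in T2134 to 0, and members lower in T55 to 0, in T646 to 11 and in T920 to 18. Quantile normalization gave 1 lower in T160, 1 higher in T176, 6 higher in T2134 and 9 lower in T55. The block gave, of members higher, 32 in T135, 1 in T160, 1 in T176, 9 in T2134 and 1 in T646, and of members lower, 3 in T135, 10 in T160, 19 in T176 and 15 in T55. With 1 array or tumour left out, the counts ran from 0 to 2 (T160, lower), 0 to 1 (T176, higher), 8 to 17 (T176, lower), 2 to 6 (T2134, higher), 0 to 8 (T55, lower), 13 to 28 (T646, lower), 18 to 27 (T135, higher) and 25 to 38 (T920, lower). One tumour against 11 gave 0 to 3 calls. The causes were not tested.

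Of 11 pairs, 8 were called, 9 after quantile normalization and 6 to 9 when 1 tumour was left out. Krt4 with Krt13 turned from 0.419 to -0.104 without the 2 farthest tumours and lay between -0.058 (without T221) and 0.555 with 1 tumour left out. Quantile normalization left no split of the tumours on Dsg3, so that 12 tumours replaced 9: Dsg3 with Dsc3 then turned from -0.119 to 0.511 and Trp63 with Dsg3 was called (r = 0.841). Within the same 9 tumours, an alternative chosen after seeing the data, these were -0.159 and 0.623 and neither was called; with the split kept, 8 pairs were called after quantile normalization and 8 or 9 with 1 tumour left out. Dsg3 with Dsc3 lay between -0.252 and 0.072 (without T372) with 1 left out. Trp63 with Dsg3 was called without T920 (0.837).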
